A study of Ovis aries with 20 samples.

Results

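The pancreas of CFTR−/− sheep at term was compared with that of WT sheep at term by bulk RNA-seq of whole tissue. The comparison takes 4 of 20 libraries, chosen by genotype and age: 2 CFTR−/− animals and 2 WT animals at term, day 147. The other 16 libraries, 2 per genotype at 65, 80, 100 and 120 days of gestation, served to estimate the spread between animals. The labels give 1 animal name to both a WT library of day 65 and a CFTR−/− library of day 100, so the identity of these 2 is in doubt. The study asks how loss of CFTR alters the developing pancreas. All animals were American Romney sheep. The WT lambs came from breeding and were born naturally, and their sex is not given. The CFTR−/− animals were clones made by somatic cell nuclear transfer from 1 male fetal fibroblast line with exon 2 of CFTR targeted. The study gives term as a range of days for the clones. For the WT lambs it recorded the time from birth to collection, which is not given per animal. Exact age, delivery and time after birth may therefore differ between the groups. Genotype, cloning, the donor line, its sex and these 3 cannot be told apart in any difference between the groups. RNA integrity at term was also described as somewhat poorer for CFTR−/− than for WT, so it too goes with genotype, and its part was not tested.

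CFTR is an anion channel in the apical membrane of pancreatic duct cells, where it passes chloride and bicarbonate and draws water into the duct. That fluid carries the digestive enzymes that acinar cells secrete towards the gut, and without it the secretions thicken and can block the ducts. Around birth the normal exocrine pancreas is filling with enzyme stores, which loads the endoplasmic reticulum and the translation machinery, while growth by cell division continues.

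The libraries differed in depth. Reads assigned to genes numbered 61638572 and 62040594 in WT 1 and WT 2, 59755480 in CFTR−/− 1 and 23171353 in CFTR−/− 2, the lowest of the 20 libraries, whose highest total was 64947692. Genes with at least 1 read numbered 19516, 19312, 16486 and 15345 in the same order. With the deeper libraries thinned to the depth of the shallowest, the WT libraries still held 18609 and 18511 genes, CFTR−/− 1 held 16355, and the CFTR−/− pair stayed below the WT pair. Levels below are CPM, counts relative to library size, scaled by trimmed means of M-values (TMM), on which a single read equalled 0.0241 CPM in WT 1 and 0.0805 CPM in CFTR−/− 2. Within each genotype, values are given with replicate 1 first, and no label pairs animals across genotypes by that number. Across genes, which are not independent of each other, the Pearson correlation of log2 CPM was 0.948 between the WT libraries, 0.904 between the CFTR−/− libraries, and from 0.845 to 0.921 between genotypes.

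Markers fitted a pancreas in all 4 libraries. The trypsinogen PRSS2 was at 42920 and 29661 CPM in WT and 35669 and 21291 in CFTR−/−. The elastase CELA3B was at 25098 and 9569 CPM in WT and 29804 and 26269 in CFTR−/−. The PRSS2 values overlapped between genotypes, CELA3B was higher in both CFTR−/− animals than in either WT animal, and both genes were abundant in each library. Duct, islet and stromal markers were read in all 4 libraries. INS, HBA1 and HBB are not in the table under those names. A single unnamed locus, LOC101117443, took 12.5% and 22.0% of all reads in WT and 33.2% and 30.8% in CFTR−/−. Its share was higher in both CFTR−/− animals, and the gene was not called (log2 difference 1.45, SE 2.39, edgeR quasi-likelihood test with Benjamini-Hochberg adjusted p = 0.740).

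CFTR itself was read at 20.2 and 15.5 CPM in WT and at 16.9 and 11.6 CPM in CFTR−/−. The genotypes overlapped, with CFTR−/− 2 lowest and CFTR−/− 1 between the WT lambs. The log2 difference, CFTR−/− minus WT as in every difference below, was −0.30 (SE 0.378, edgeR quasi-likelihood test with Benjamini-Hochberg adjusted p = 0.653), −0.18 with a trend on gene length removed, and 0.20 when the TMM scaling was dropped along with that trend. The count sums reads over all exons of the gene, on chromosome 4 from 50644000 to 50864925 in Oar_v4.0, so it does not test an edit in exon 2 and does not check the genotype labels.

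Across the transcriptome, 19522 of 24478 genes had enough reads to be tested, and 154 of them (0.789%) were called, which required an adjusted p no higher than 0.01 together with a log2 difference no smaller in size than 0.58. Of these, 68 (0.348%) were higher and 86 (0.441%) lower in CFTR−/−. Their split depended on the scaling: upper quartile scaling gave 133 higher and 82 lower, total count alone 45 and 383. Removal of a trend fitted on gene length gave 394 and 55 in a form that also drops the TMM scaling, and 130 and 120 with that scaling kept, the latter form chosen after seeing the data. At an adjusted p of 0.05, 822 genes (4.21%) were higher and 1041 (5.33%) lower. At an unadjusted p under 0.05 in edgeR's quasi-likelihood test, 2291 (11.7%) were higher and 3095 (15.9%) lower. DESeq2 called 1031 (5.28%) higher and 1370 (7.02%) lower, and the likelihood ratio test 661 (3.39%) and 875 (4.48%), which are the shares to set beside the counts of each gene list below. In 4151 genes (21.3%) both CFTR−/− values lay above both WT values, and in 6387 (32.7%) both lay below. These are the shares to set beside the counts of list members wholly above or wholly below WT. Of all genes tested, 8244 (42.2%) had a higher mean in CFTR−/− and 10931 a lower one. These go beside the counts of list members with a higher or a lower mean. The median log2 difference over all genes tested was −0.17, or 0.00 with the 2233 genes at 0 in a whole genotype set to their bounds. Total count alone moved that median by −0.54, removal of the length trend and TMM together by 0.37, and removal of the length trend with TMM kept by 0.04. In simulated data the test recovered 0% of 2-fold, 29.3% of 4-fold and 45.7% of 8-fold changes, with 0 false calls, so a gene that was not called may still differ.

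The number of calls rested on single animals. Without CFTR−/− 2 the test called 4 genes, all among the 154: CHRD, LOC101112585, C25H10orf10 and LOC105605070, listed because they are few and after their values were seen. Without WT 2 it called 20, of which 11 were among the 154. Without WT 1 it called 293, with 70 of the 154 kept, and without CFTR−/− 1 it called 317, with 93 kept. No called gene changed sign under any alternative run.

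The genes called higher in CFTR−/− with the smallest adjusted p included CCL26, IGFBP5 and VEGFB, which encode secreted proteins. CCL26, a chemokine that draws eosinophils, was at 12.6 and 11.4 CPM in WT and 366 and 491 CPM in CFTR−/−. Both CFTR−/− animals were far above both WT lambs, and CCL26 rose by 5.15 on the log2 scale (SE 0.644, edgeR quasi-likelihood test with Benjamini-Hochberg adjusted p = 0.00281). IGFBP5, a secreted protein that binds insulin-like growth factors, was at 87.7 and 98.7 CPM in WT and 418 and 441 CPM in CFTR−/−. The pairs were tight and apart, with a log2 difference of 2.20 (SE 0.290, edgeR quasi-likelihood test with Benjamini-Hochberg adjusted p = 0.00343). VEGFB, a growth factor of the vascular endothelial family, was at 22.3 and 25.6 CPM in WT and 86.4 and 107 in CFTR−/−. No value overlapped, and VEGFB rose by 2.01 on the log2 scale (SE 0.294, edgeR quasi-likelihood test with Benjamini-Hochberg adjusted p = 0.00436). AGTRAP, which binds the type 1 angiotensin II receptor and limits its signalling, was at 22.3 and 19.7 CPM in WT and 77.0 and 61.3 in CFTR−/−. It too was apart, with CFTR−/− 1 the higher of its pair, and differed by 1.72 on the log2 scale (SE 0.265, edgeR quasi-likelihood test with Benjamini-Hochberg adjusted p = 0.00492).

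PLCL2, a protein related to phospholipase C, was at 5.27 and 6.14 CPM in WT and 27.7 and 55.8 in CFTR−/−. CFTR−/− 2 was the higher of a pair that lay wholly above WT, and the log2 difference was 2.85 (SE 0.431, edgeR quasi-likelihood test with Benjamini-Hochberg adjusted p = 0.00480). ANKRD55, an ankyrin repeat protein, was at 2.34 and 3.05 CPM in WT and 26.2 and 19.2 in CFTR−/−. Its values did not overlap, and it rose by 3.08 on the log2 scale (SE 0.403, edgeR quasi-likelihood test with Benjamini-Hochberg adjusted p = 0.00343). C26H8orf4, an open reading frame named by its position, was at 32.9 and 36.6 CPM in WT and 125 and 264 in CFTR−/−. The lower CFTR−/− animal was still above both WT lambs, with a log2 difference of 2.48 (SE 0.295, edgeR quasi-likelihood test with Benjamini-Hochberg adjusted p = 0.00281). C25H10orf10, another such reading frame, was at 3.78 and 4.87 CPM in WT but at 50.8 and 581 in CFTR−/−. Its CFTR−/− values were unequal and both above WT, the log2 difference was 6.18 (SE 0.843, edgeR quasi-likelihood test with Benjamini-Hochberg adjusted p = 0.00402), and it overlaps RASSF4 and LOC105605070 on the other strand, so its reads are uncertain because the strand setting of the counting is not stated. All 8 of these genes lost their call without WT 2, with adjusted p from 0.0110 to 0.0262 in that edgeR quasi-likelihood test. Without CFTR−/− 2, 7 lost it, with C25H10orf10 at 0.00986 and the highest at 0.0606, without WT 1 4 lost it (highest 0.0156), and without CFTR−/− 1 only AGTRAP did (0.0115).

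Genes lower in CFTR−/− included EXTL3, a glycosyltransferase that starts heparan sulphate chains and also serves as a receptor for REG proteins. EXTL3, on chromosome 2 from 101984150 to 102043963, was at 95.1 and 61.7 CPM in WT and 13.4 and 10.5 in CFTR−/−. Both WT lambs were far above, and EXTL3 fell by 2.69 on the log2 scale (SE 0.299, edgeR quasi-likelihood test with Benjamini-Hochberg adjusted p = 0.00281). ARL1, a small GTPase of the Golgi, was at 37.7 and 45.1 CPM in WT and 9.65 and 9.18 in CFTR−/−. Its pairs were apart and it fell by 2.13 on the log2 scale (SE 0.298, edgeR quasi-likelihood test with Benjamini-Hochberg adjusted p = 0.00423), with its reads uncertain because its span overlaps RPS26 on the same strand. RALGAPB, a subunit of the complex that switches off Ral GTPases, was at 40.1 and 35.9 CPM in WT and 10.9 and 10.1 in CFTR−/−. The WT lambs were the higher pair, and the log2 difference was −1.85 (SE 0.261, edgeR quasi-likelihood test with Benjamini-Hochberg adjusted p = 0.00423). PSMD11, a subunit of the proteasome's regulatory particle, was at 65.0 and 104 CPM in WT and 29.2 and 21.7 in CFTR−/−. It was lower in both CFTR−/− animals, by −1.72 on the log2 scale (SE 0.249, edgeR quasi-likelihood test with Benjamini-Hochberg adjusted p = 0.00436). CR2, the complement receptor of B cells, was at 10.5 and 9.03 CPM in WT and 1.45 and 0.402 in CFTR−/−, overlaps CR1L on the same strand and is uncertain for that reason. CR2 was lower in both CFTR−/− animals, with CFTR−/− 2 near the bottom of the measured range, and fell by 3.14 on the log2 scale (SE 0.446, edgeR quasi-likelihood test with Benjamini-Hochberg adjusted p = 0.00423). These 5 genes all lost their call without CFTR−/− 2, with adjusted p from 0.0276 for EXTL3 to 0.0662 in the edgeR quasi-likelihood test, and all except EXTL3 lost it without WT 2, the highest being 0.0175.

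The strand setting leaves the same doubt over the reads of other genes named here that overlap a locus on the other strand. Among called genes these are ANKRD55, ETF1, CDC6, ANKRD37, SLC2A3 and LOC105605070, the last overlapping RASSF4 on the same strand as well, and among uncalled genes HSP90B1, HSPA8, AHSG and FABP4.

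**Figure D1:**
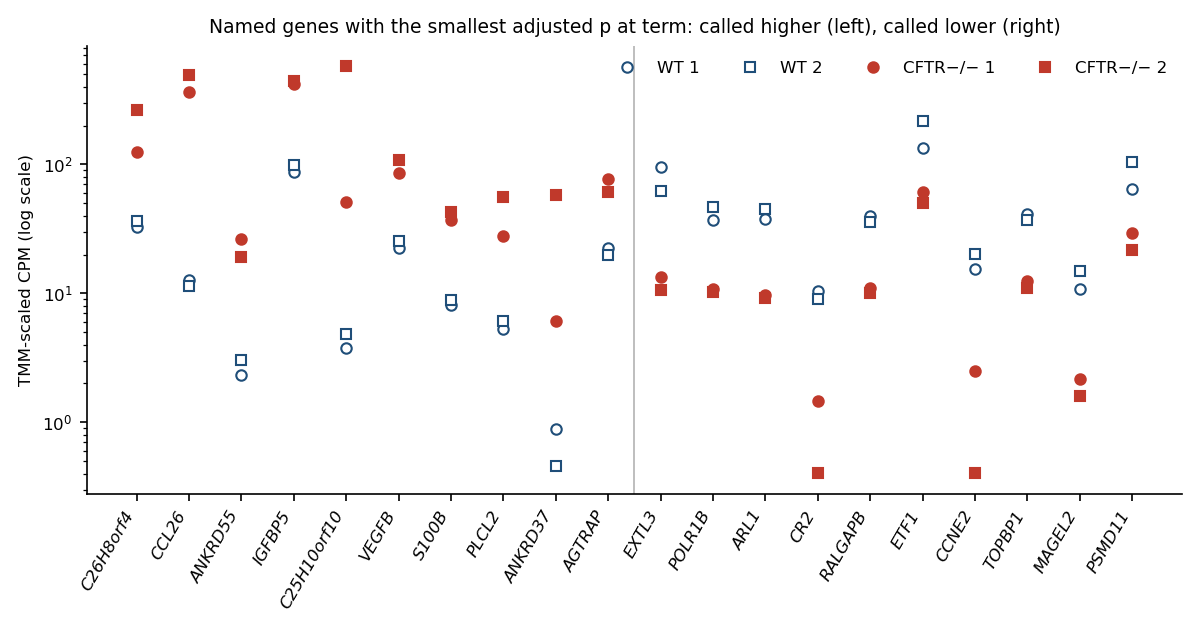
TMM-scaled CPM on a log axis of the 10 named genes per direction with the smallest adjusted p, called higher on the left and lower on the right, with WT 1 and WT 2 as open and CFTR−/− 1 and CFTR−/− 2 as filled symbols. In each gene the filled and open symbols do not overlap, and in C25H10orf10 the CFTR−/− animals lie at 50.8 and 581 CPM.

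Most genes that copy DNA had lower means in CFTR−/−. Of 49 replication genes tested, 44 had a lower mean and 5 a higher one, 8 were called lower and 0 higher, and in 39 both CFTR−/− values lay below both WT values, against 32.7% of all genes. Their median log2 difference was −1.39, beside −0.17 over all genes, and stayed between −1.93 and −0.93 under the other scalings. MCM6, a subunit of the helicase that opens origins, was at 42.9 and 84.6 CPM in WT and 16.5 and 6.68 in CFTR−/−. The CFTR−/− animals were the lower pair, and MCM6 fell by 2.40 on the log2 scale (SE 0.368, edgeR quasi-likelihood test with Benjamini-Hochberg adjusted p = 0.00492). CDC6, which loads that helicase, was at 21.5 and 31.3 CPM in WT and 6.10 and 1.05 in CFTR−/−. Its values did not overlap, with CFTR−/− 2 lowest, and it fell by 2.7 on the log2 scale (SE 0.453, edgeR quasi-likelihood test with Benjamini-Hochberg adjusted p = 0.00741). MCM10, which helps to start the helicase, was at 17.9 and 28.3 CPM in WT and 4.81 and 4.75 in CFTR−/−. CFTR−/− values were nearly equal and well below WT, with a log2 difference of −2.27 (SE 0.338, edgeR quasi-likelihood test with Benjamini-Hochberg adjusted p = 0.00451). CCNE2, the E-type cyclin of entry into S phase, called but not a member of the list, was at 15.5 and 20.4 CPM in WT and 2.49 and 0.402 in CFTR−/−. It was lower in both CFTR−/− animals and fell by 3.36 on the log2 scale (SE 0.477, edgeR quasi-likelihood test with Benjamini-Hochberg adjusted p = 0.00423). MCM7, another helicase subunit and the list's most abundant gene, was at 81.1 and 133 CPM in WT and 87.5 and 80.0 in CFTR−/−. Only WT 2 stood out for MCM7, the genotypes overlapped and it was not called. TOPBP1, a scaffold of origin firing and of the damage checkpoint, was at 41.2 and 37.0 CPM in WT and 12.4 and 10.9 in CFTR−/−. The pairs were tight and apart, and TOPBP1 fell by 1.74 on the log2 scale (SE 0.250, edgeR quasi-likelihood test with Benjamini-Hochberg adjusted p = 0.00436). The 8 calls of the list became 0 without WT 2 and 0 without CFTR−/− 2, 12 without WT 1 and 14 without CFTR−/− 1, and its median ran from −1.99 to −1.02 over these runs. Of MCM6, CDC6, MCM10, TOPBP1 and CCNE2, MCM10 alone lost its call without CFTR−/− 1 (edgeR quasi-likelihood adjusted p = 0.0120). The same edgeR quasi-likelihood adjusted p of these 5 genes ran from 0.0114 to 0.0262 without WT 2 and from 0.0378 to 0.0606 without CFTR−/− 2.

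Most genes of mitosis also had lower means, without calls. Their summed level was 997 and 504 CPM in WT and 532 and 388 in CFTR−/−, overlapping because WT 2 lay below CFTR−/− 1. Of 54 tested, 51 had a lower mean. Wholly below WT lay 26 and wholly above 2, beside 32.7% and 21.3% of all genes, and 26 overlapped. The median of the list was −0.91 and ranged from −1.41 to −0.41 over the other scalings, with −0.34 without WT 1 and −1.40 without CFTR−/− 1. edgeR's quasi-likelihood test called 0 of them, with 24 lower and 1 higher at an unadjusted p under 0.05, and 12 were called lower by DESeq2 and 7 by the likelihood ratio test. Without WT 2, 1 was called, and without CFTR−/− 1, 2 were. MKI67, the Ki-67 protein of dividing cells, was at 64.8 and 16.9 CPM in WT and 5.97 and 0.563 in CFTR−/−. WT 1 was highest and CFTR−/− 2 lowest, with no overlap, a log2 difference of −3.41 and an adjusted p of 0.0193 in edgeR's quasi-likelihood test with Benjamini-Hochberg adjustment. TOP2A, the topoisomerase that untangles chromosomes, was at 60.6 and 16.5 CPM in WT and 18.9 and 6.60 in CFTR−/−. Here WT 2 lay below CFTR−/− 1, so the genotypes overlapped. STMN1, a regulator of microtubules and the most abundant gene of the list, was at 73.1 and 63.5 CPM in WT and 127 and 104 in CFTR−/−. SMC4, a subunit of condensin, was at 38.0 and 27.3 CPM in WT and 21.8 and 28.7 in CFTR−/−. STMN1 was thus higher in both CFTR−/− animals, with a log2 difference of 0.77, SMC4 overlapped, and neither was called. In whole tissue, fewer dividing cells and less of these RNAs per cell cannot be told apart, and the same holds for every cell type below.

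Ribosomal protein genes had higher means in CFTR−/−. Most genes that build ribosomes had lower means, though their summed level was high in WT 2 alone. In all 77 ribosomal protein genes both CFTR−/− values lay above both WT values, against 21.3% of all genes. Their log2 differences ran from 0.85 to 2.54 with a median of 1.68, and the median was 1.10 to 1.76 under the other scalings and 1.25 to 2.13 when 1 library was left out. edgeR's quasi-likelihood test called 0 of them, with 74 higher at an unadjusted p under 0.05, and 68 were called higher by DESeq2 and 38 by the likelihood ratio test. RPLP1, a protein of the ribosomal stalk, was at 2126 and 3967 CPM in WT and 10124 and 13425 in CFTR−/−. FAU, which encodes a ubiquitin-like peptide fused to a small subunit protein, was at 303 and 645 CPM in WT and 1308 and 2036 in CFTR−/−. In RPLP1 and FAU both CFTR−/− animals were above both WT lambs, and CFTR−/− 2 was highest. The summed level of the list was 59382 and 105522 CPM in WT and 205087 and 311019 CPM in CFTR−/−. Ribosomal protein genes have many near-identical processed copies, so how reads were shared among copies is uncertain.

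Of 49 ribosome biogenesis genes, 46 had a lower mean in CFTR−/−, and 2 were called lower and 0 higher. Wholly below WT lay 26, beside 32.7% of all genes, and 23 overlapped. The median was −0.90, or −1.47 to −0.50 under the other scalings and −0.23 without WT 2. The summed list was at 2414 and 5544 CPM in WT and 2495 and 2579 in CFTR−/−. WT 1 thus lay below both CFTR−/− animals, and WT 2 alone was high. POLR1B, the second largest subunit of RNA polymerase I, which transcribes ribosomal RNA, was at 37.3 and 47.0 CPM in WT and 10.9 and 10.2 in CFTR−/−. The CFTR−/− animals were nearly equal and below WT, and POLR1B fell by 2.00 on the log2 scale (SE 0.269, edgeR quasi-likelihood test with Benjamini-Hochberg adjusted p = 0.00402). RRP1B, a nucleolar protein, was at 32.0 and 47.7 CPM in WT and 16.3 and 11.6 in CFTR−/−. It was lower in both CFTR−/− animals, by −1.49 on the log2 scale (SE 0.263, edgeR quasi-likelihood test with Benjamini-Hochberg adjusted p = 0.00816). The list's most abundant gene, NCL (nucleolin), was at 423 and 1263 CPM in WT and 427 and 405.5 in CFTR−/−. Only WT 2 stood out for NCL, and the genotypes overlapped. Its 2 calls became 15 without WT 1, 6 without CFTR−/− 1, and 0 without WT 2 or without CFTR−/− 2.

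Among 38 translation factors 2 were called lower and 0 higher, and the median was −0.23, or −0.17 with the length trend removed. It turned to 0.25 when TMM was dropped as well, with 0 called, and to 0.42 without WT 2. A higher mean was found in 18 and a lower one in 20. Wholly above WT were 9 and wholly below 15, beside 21.3% and 32.7% of all genes. EEF1A1, the list's most abundant gene, was at 7652 and 10403 CPM in WT and 12523 and 18915 in CFTR−/−, apart but not called. The summed list was at 20193 and 29298 CPM in WT and 31989 and 44340 in CFTR−/−, higher in both CFTR−/− animals. EIF4G1, the scaffold of the cap-binding complex, was at 362 and 642 CPM in WT and 167 and 114 in CFTR−/−. Both CFTR−/− animals were below WT, and EIF4G1 fell by 1.83 on the log2 scale (SE 0.309, edgeR quasi-likelihood test with Benjamini-Hochberg adjusted p = 0.00741). ETF1, the factor that recognises stop codons, was at 134 and 219 CPM in WT and 61.4 and 50.5 in CFTR−/−. Again the pairs were apart, with a log2 difference of −1.65 (SE 0.233, edgeR quasi-likelihood test with Benjamini-Hochberg adjusted p = 0.00423). The 2 calls of the list became 8 without WT 1, 3 without CFTR−/− 1, and 0 without WT 2 or without CFTR−/− 2. EIF4G1, ETF1, POLR1B and RRP1B lost their calls without WT 2, with adjusted p from 0.0120 to 0.0409 in edgeR's quasi-likelihood test, and without CFTR−/− 2, from 0.0572 to 0.109.

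The difference also followed the summed exon length of genes. The median log2 difference was 0.58 for the 464 genes under 500 bases, 0.36 for the 1716 genes of 500 to 1000 bases, −0.24 for the 6301 of 2000 to 4000 bases, −0.34 for the 4879 of 4000 to 8000 bases and −0.31 for the 1863 of at least 8000 bases, so it did not drop further in the longest bin. Short genes were therefore relatively higher and long genes lower in CFTR−/−. Called higher genes had a median exon length of 1896 bases and called lower genes 3872, beside 2862 over all tested. The ribosomal protein genes are short, with a median of 679 bases, yet lay above other genes of their length, with a median of 1.76 for the 17 under 500 bases and 1.70 for the 48 of 500 to 1000 bases. The alternatives fitted on length reduced the trend without taking all of it away. From the shortest to the longest bin the median still went from 0.05 to −0.26 with TMM kept, and from 0.42 to 0.12 with TMM dropped. The ribosomal median was 1.29 and 1.71 in these 2 forms, and the replication median −1.29 and −0.93. The part of length in the results was not tested further.

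**Figure D2:**
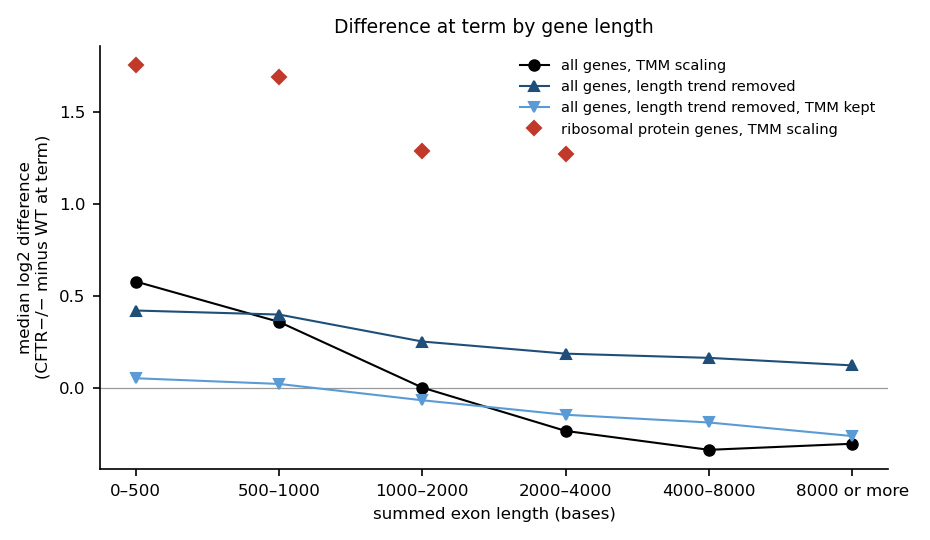
Median log2 difference, CFTR−/− minus WT at term, by bin of summed exon length in bases, for all genes tested under TMM scaling and with a fitted length trend taken out with and without the TMM scaling kept, and for ribosomal protein genes. The median of all genes goes from 0.58 in the shortest bin to −0.34 at 4000 to 8000 bases and −0.31 in the longest bin, and the ribosomal protein genes lie above it in the 4 bins that hold them.

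Most genes of the unfolded protein response and chaperones of the endoplasmic reticulum had lower means. Of 47 tested, 40 had a lower mean and 7 a higher one, and 27 lay wholly below WT, against 32.7% of all genes. The median was −0.86, with −1.43 to −0.48 under the other scalings and −0.48 without WT 2. edgeR's quasi-likelihood test called 0, with 24 lower and 0 higher at an unadjusted p under 0.05, while DESeq2 called 19 lower and the likelihood ratio test 11. HSPA5, the main chaperone of that compartment, was at 2609 and 8873 CPM in WT and 1948 and 979.9 in CFTR−/−. HSP90B1, its HSP90 relative, was at 1791 and 8600 CPM in WT and 1788 and 1155 in CFTR−/−. In both genes WT 2 stood far above the other 3 libraries, and WT 1 lay above both CFTR−/− animals, by little in HSP90B1. The summed level of the list was 22364 and 45034 CPM in WT and 19178 and 13592 in CFTR−/−. Without WT 1, 3 of its genes were called.

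Of 44 genes induced by amino acid shortage through the factor ATF4, 38 had a lower mean, 2 were called lower and 0 higher, and the median was −1.04, between −1.61 and −0.70 under the other scalings, −0.58 without WT 2 and −1.67 without CFTR−/− 1. PSAT1, an enzyme of serine synthesis, was at 266 and 319 CPM in WT and 71.8 and 27.0 in CFTR−/−. The pairs were apart, CFTR−/− 2 was lowest, and PSAT1 fell by 2.55 on the log2 scale (SE 0.448, edgeR quasi-likelihood test with Benjamini-Hochberg adjusted p = 0.00816). SLC38A2, a transporter of neutral amino acids, was at 348 and 219 CPM in WT and 117 and 122 in CFTR−/−. CFTR−/− values were near equal and lower, by −1.25 on the log2 scale (SE 0.216, edgeR quasi-likelihood test with Benjamini-Hochberg adjusted p = 0.00811). NUPR1, a stress protein of the exocrine pancreas and the list's most abundant gene, went the other way, at 1154 and 2056 CPM in WT and 3595 and 5842 in CFTR−/−. Its pairs were apart and it was not called. With the term libraries thinned to the depth of the shallowest, the list had 0 calls. The list had 8 calls without WT 1, 1 without WT 2, 5 without CFTR−/− 1 and 0 without CFTR−/− 2. PSAT1 lost its call without WT 2 (adjusted p = 0.0276 in edgeR's quasi-likelihood test), SLC38A2 without WT 1 (0.0164) and without CFTR−/− 1 (0.0202), and both without CFTR−/− 2.

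The 28 heat shock genes had a median of −0.73, from −1.32 to −0.28 under the other scalings, which became 0.13 without WT 2. edgeR's quasi-likelihood test called 0, with 12 lower and 4 higher at an unadjusted p under 0.05, DESeq2 called 4 lower and 2 higher, the likelihood ratio test 2 in each direction, while 7 were called without WT 1 and 1 without CFTR−/− 1. HSPA8, the constitutive HSP70, was at 402 and 2000 CPM in WT and 229 and 106 in CFTR−/−. WT 2 was the highest by far, and both CFTR−/− animals lay below both WT lambs. HSPA1A, the inducible HSP70, was at 67.4 and 597 CPM in WT and 1011 and 1299 in CFTR−/−, overlaps HSPA1B and HSPA1L and is near-identical to the former, so its reads are uncertain. For HSPA1A the WT lambs were the lower pair.

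Genes of glycolysis and of the response to low oxygen had no direction that held in every run. Of 49 tested, 34 had a higher mean, 3 were called higher and 0 lower, and the median was 0.53, turning to −0.05 with total count alone, to −0.17 without CFTR−/− 2 and to 1.06 without WT 2. Only 11 lay wholly above WT, a share close to the 21.3% of all genes, 5 lay wholly below, and 33 overlapped. By contrast 18 were higher and 3 lower at an unadjusted p under 0.05 in edgeR's quasi-likelihood test, beside 11.7% and 15.9% of all genes, DESeq2 called 12 higher and 1 lower, and the likelihood ratio test 9 and 1. SLC2A3, the glucose transporter GLUT3, was at 5.71 and 2.99 CPM in WT and 63.0 and 400.4 in CFTR−/−. CFTR−/− 2 was several times above CFTR−/− 1, both were above WT, and SLC2A3 rose by 5.74 on the log2 scale (SE 0.949, edgeR quasi-likelihood test with Benjamini-Hochberg adjusted p = 0.00734). ANKRD37, a direct target of the hypoxia-inducible factor, was at 0.891 and 0.455 CPM in WT and 6.13 and 58.0 in CFTR−/−. It had the same order of animals and rose by 5.56 on the log2 scale (SE 0.853, edgeR quasi-likelihood test with Benjamini-Hochberg adjusted p = 0.00492). MXI1, a repressor of MYC targets, was at 14.7 and 7.42 CPM in WT and 29.0 and 46.8 in CFTR−/−. Once more the groups did not overlap, with a log2 difference of 1.77 (SE 0.325, edgeR quasi-likelihood test with Benjamini-Hochberg adjusted p = 0.00958). GAPDH, a glycolytic enzyme, was at 146 and 293 CPM in WT and 327 and 1015 in CFTR−/−, apart but not called. The summed list was at 1425 and 2369 CPM in WT and 1802 and 6228 in CFTR−/−, so CFTR−/− 2 stood alone and the genotypes overlapped. The list had 10 calls without CFTR−/− 1, 1 without WT 1, and 0 without WT 2 or without CFTR−/− 2, where the 3 genes had adjusted p from 0.0371 to 0.0459 and from 0.0586 to 0.111 in edgeR's quasi-likelihood test.

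Of 23 genes of the insulin-like growth factor axis, 1 was called, IGFBP5, and the median was −0.57, −0.43 with the length trend removed, 0.00 when TMM was dropped as well and −0.37 without CFTR−/− 1. IGFBP4, another binding protein, was at 153 and 272 CPM in WT and 39.2 and 20.8 in CFTR−/−. Its direction was thus opposite to that of IGFBP5, with no overlap, but it was not called (log2 difference −2.80, edgeR quasi-likelihood test with Benjamini-Hochberg adjusted p = 0.0128). IGFBP5 lost its call without WT 2 and without CFTR−/− 2, leaving 0 in the list, and 3 genes were called without CFTR−/− 1. For the 20 glucocorticoid response genes the median was −0.86, from −1.38 to −0.31 under the other scalings and −0.49 without WT 1. Of these edgeR's quasi-likelihood test called 0, with 7 lower and 2 higher at an unadjusted p under 0.05. DESeq2 and the likelihood ratio test each called 2 in each direction. PDK4, which slows glucose oxidation, was at 127 and 215 CPM in WT and 13.6 and 45.8 in CFTR−/−. TXNIP, an inhibitor of thioredoxin, was at 157 and 181 CPM in WT and 205 and 832 in CFTR−/−. PDK4 was lower and TXNIP higher in both CFTR−/− animals, neither of them called. The 24 immediate early genes had a median of 0.38, −0.13 with total count alone and 0.67 without WT 1, and edgeR's quasi-likelihood test called 0, with 7 higher at an unadjusted p under 0.05, 4 higher by DESeq2 and 3 by the likelihood ratio test. Without CFTR−/− 1, 2 glucocorticoid response genes and 1 immediate early gene were called.

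A brake on cell division, an imprinted gene and a gene of cell death were called. CDKN1C, an imprinted inhibitor of cyclin-dependent kinases, was at 4.58 and 6.36 CPM in WT and 37.2 and 93.5 in CFTR−/−. It was above WT in both CFTR−/− animals and rose by 3.56 on the log2 scale (SE 0.613, edgeR quasi-likelihood test with Benjamini-Hochberg adjusted p = 0.00811). MAGEL2, an imprinted gene of the Prader-Willi region, was at 10.9 and 14.8 CPM in WT and 2.16 and 1.61 in CFTR−/−. It was below WT in both and fell by 2.71 on the log2 scale (SE 0.392, edgeR quasi-likelihood test with Benjamini-Hochberg adjusted p = 0.00436). They were the calls among 26 imprinted genes, whose median was 0.00, from −0.41 to 0.47 under the other scalings. DLK1, an imprinted regulator of precursor cells, was at 70.6 and 325 CPM in WT and 364 and 726 in CFTR−/−, apart but not called. BBC3, the p53 target PUMA that triggers apoptosis, was at 1.57 and 0.777 CPM in WT and 6.78 and 5.63 in CFTR−/−. BBC3 was higher in both CFTR−/− animals by 2.46 on the log2 scale (SE 0.435, edgeR quasi-likelihood test with Benjamini-Hochberg adjusted p = 0.00841), and was the call among 31 genes of p53 and apoptosis. Their median was −0.44, from −0.94 to −0.04 under the other scalings. Wholly below WT lay 13 and wholly above 6, beside 32.7% and 21.3% of all genes. At an unadjusted p under 0.05 in edgeR's quasi-likelihood test 10 were lower and 4 higher, DESeq2 called 5 lower and 3 higher, and the likelihood ratio test 3 in each direction. With a block on replicate number the p53 and apoptosis list had 0 calls and the imprinted list 1. The same counts came from the term libraries thinned to the depth of the shallowest. TP53INP1, a p53 target, was at 97.1 and 6.14 CPM in WT and 2.13 and 3.14 in CFTR−/−. WT 1 alone was high, both CFTR−/− animals were below WT, and TP53INP1 was called without WT 2 only among the runs with 1 library left out. CDKN1C, MAGEL2 and BBC3 all lost their call without WT 2 (highest adjusted p 0.0457 in edgeR's quasi-likelihood test) and without CFTR−/− 2 (0.0915), CDKN1C also without WT 1 (0.0332) and BBC3 without CFTR−/− 1 (0.0225).

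The summed level of acinar genes varied more within WT than between genotypes. The 29 tested had a median of 0.02, from −0.41 to 0.39 under the other scalings and from −0.45 to 1.43 when 1 library was left out, so no direction was held. Both CFTR−/− values lay above both WT values in 7 of them and below in 0, beside 21.3% and 32.7% of all genes, and 22 overlapped. edgeR's quasi-likelihood test called 0, with 2 higher at an unadjusted p under 0.05, and DESeq2 and the likelihood ratio test called 0 as well, while 1 was called without WT 1. Their summed level was 504539 and 138255 CPM in WT and 397538 and 231855 in CFTR−/−. WT 1 was highest, WT 2 lowest, and the CFTR−/− animals lay between them. CPA1, the pancreatic carboxypeptidase and the list's most abundant gene, followed the same order, at 122188 and 28745 CPM in WT and 101396 and 51777 in CFTR−/−. CEL, the bile salt-activated lipase, was at 58716 and 24396 CPM in WT and 37318 and 24483 in CFTR−/−, with overlap and a log2 difference of −0.43 that turned to 0.28 without WT 1. CLPS, the cofactor of pancreatic lipase, was at 12621 and 4624 CPM in WT and 35410 and 21094 in CFTR−/−. PLA2G1B, the pancreatic phospholipase, was at 4995 and 1659 CPM in WT and 15458 and 9529 in CFTR−/−. CLPS and PLA2G1B were higher in both CFTR−/− animals and not called. REG1A, a secreted acinar protein of regeneration that is counted in the inflammation list instead, was at 99046 and 2851 CPM in WT and 6784 and 2239 in CFTR−/−. WT 1 alone was high, the other 3 overlapped, and the log2 difference was −3.50 with all animals but 0.60 without WT 1.

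In the duct, the receptor for secretin was the called gene. SCTR, through which secretin drives bicarbonate secretion, was at 14.5 and 13.5 CPM in WT and 62.9 and 158 in CFTR−/−. CFTR−/− 2 was highest, both CFTR−/− animals were above WT, and SCTR rose by 2.97 on the log2 scale (SE 0.518, edgeR quasi-likelihood test with Benjamini-Hochberg adjusted p = 0.00811). It lost its call without WT 1 (0.0262), WT 2 (0.0441) and CFTR−/− 2 (0.103) in edgeR's quasi-likelihood test. SCTR was the call among 30 genes of duct ion and bicarbonate transport. Of these, 21 had a lower and 9 a higher mean, beside 10931 and 8244 of all 19522 genes tested. Wholly below WT lay 14 and wholly above 2, beside 32.7% and 21.3% of all genes. Their median was −0.65, from −1.20 to −0.17 under the other scalings. It was −0.31 with genes at 0 set to their bounds, −0.32 without WT 2 and −1.58 without CFTR−/− 1. WNK1, a kinase that senses chloride and sets transporter activity, was at 133 and 71.5 CPM in WT and 30.5 and 20.6 in CFTR−/−. WNK1 was lower in both CFTR−/− animals, with a log2 difference of −1.99 and an adjusted p of 0.0132 in edgeR's quasi-likelihood test with Benjamini-Hochberg adjustment, and was not called.

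The 30 duct epithelial genes had a median of 0.12, −0.41 with total count alone and 0.25 without WT 2, and edgeR's quasi-likelihood test called 0, with 5 higher at an unadjusted p under 0.05 and 0 by DESeq2 and the likelihood ratio test. KRT19, a keratin of duct cells, was at 33.2 and 31.7 CPM in WT and 57.3 and 106 in CFTR−/−. ELF5, a transcription factor of epithelial cells, was at 9.17 and 8.81 CPM in WT and 5.97 and 8.77 in CFTR−/−. KRT19 was higher in both CFTR−/− animals, ELF5 was lower in both though by little in CFTR−/− 2, and neither was called. The 18 mucin and trefoil genes had a median of −0.16, which was −0.09 with the length trend removed, turned to 0.29 when TMM was dropped as well, and was 0.00 with genes at 0 set to their bounds and −1.29 without CFTR−/− 1. Of these edgeR's quasi-likelihood test called 0, with 3 lower and 1 higher at an unadjusted p under 0.05, 3 lower by DESeq2 and 1 by the likelihood ratio test. TFF2, a trefoil peptide that thickens mucus, was at 6434 and 4031 CPM in WT and 3780 and 2060 in CFTR−/−. It was lower in both CFTR−/− animals, though CFTR−/− 1 lay close to WT 2, and was not called.

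Most endocrine genes had higher means in CFTR−/−. Of 38 endocrine genes 29 had a higher mean. Wholly above WT lay 16 and wholly below 3, beside 21.3% and 32.7% of all genes, and 19 overlapped. The median of the list was 0.68, staying positive at 0.07 to 1.13 under the other scalings, with 0.12 without WT 1 and 1.59 without WT 2. edgeR's quasi-likelihood test called 0, with 9 higher at an unadjusted p under 0.05, 3 higher by DESeq2 and 0 by the likelihood ratio test. SST, the hormone of delta cells, was at 232 and 383 CPM in WT and 1560 and 1253 in CFTR−/−. TTR, the transthyretin of alpha cells, was at 109 and 178 CPM in WT and 554 and 613 in CFTR−/−. GCG, the alpha cell hormone, was at 359 and 1007 CPM in WT and 2601 and 1323 in CFTR−/−. In SST, TTR and GCG both CFTR−/− animals were above both WT lambs, most narrowly for GCG. SCGN, a calcium sensor of islet cells, had the same order, at 28.2 and 89.8 CPM in WT and 170 and 202 in CFTR−/−. Other members overlapped. CHGA, a granin of endocrine granules, was at 122 and 758 CPM in WT and 666 and 1032 in CFTR−/−, and ISL1, an islet transcription factor, at 3.95 and 7.42 CPM in WT and 16.4 and 2.41 in CFTR−/−. CHGA was low in WT 1 alone, and ISL1 was highest in CFTR−/− 1 and lowest in CFTR−/− 2. For SST the log2 difference was 2.19 (SE 0.665, edgeR quasi-likelihood test with Benjamini-Hochberg adjusted p = 0.0507), the smallest adjusted p of the list. Summed, the list was at 1248 and 3357 CPM in WT and 7132 and 6101 in CFTR−/−.

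Connective tissue genes showed no common direction under every scaling. The median was 0.38 over 41 stromal genes, −0.09 with total count alone, −0.05 without WT 2 and 0.93 without WT 1. It was 0.42 over 34 stellate and myofibroblast genes, −0.12 with total count alone and 0.06 without WT 2. Wholly above WT were 17 of the stromal and 14 of the stellate genes, beside 21.3% of all genes, and wholly below 7 and 6, beside 32.7%. edgeR's quasi-likelihood test called 0 in either list, with 6 higher and 3 lower of the stromal and 9 higher and 4 lower of the stellate genes at an unadjusted p under 0.05, beside 11.7% and 15.9% of all genes. DESeq2 called 2 stromal genes higher, and 2 stellate genes in each direction, and the likelihood ratio test 0 stromal genes and, of the stellate genes, 1 higher and 2 lower. Without WT 2, 1 stellate gene was called. COL3A1, a fibrillar collagen, was at 860 and 429 CPM in WT and 972 and 960.5 in CFTR−/−, narrowly above WT 1 and well above WT 2 in both CFTR−/− animals. COL1A1, the main fibrillar collagen, was at 852 and 306 CPM in WT and 470 and 264 in CFTR−/−, overlapping, with a log2 difference of −0.66 that turned to 0.21 without WT 1. SPARC, a secreted protein that binds collagen, was at 602 and 252 CPM in WT and 544 and 582 in CFTR−/−, overlapping because only WT 2 was low. DCN, a proteoglycan of collagen fibres, was at 105 and 107 CPM in WT and 184 and 370 in CFTR−/−. The smooth muscle actin ACTA2 was at 24.7 and 9.02 CPM in WT and 37.3 and 99.8 in CFTR−/−. VIM, the filament protein of mesenchymal cells, was at 211 and 150 CPM in WT and 408 and 924 in CFTR−/−. DCN, ACTA2 and VIM were each highest in CFTR−/− 2 and lower in both WT lambs than in either CFTR−/− animal, with no call.

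Of 24 Schwann and glial genes, 16 had a higher mean. Wholly above WT lay 13 and wholly below 4, beside 21.3% and 32.7% of all genes. The median of the list was 0.68, or 0.16 with total count alone, and 1 was called. S100B is a calcium-binding protein of glia, but in its single cells of 120 days the study names it as a marker of duct cells. S100B was at 8.16 and 8.81 CPM in WT and 37.3 and 42.8 in CFTR−/−. Its pairs were tight and apart, and S100B rose by 2.23 on the log2 scale (SE 0.329, edgeR quasi-likelihood test with Benjamini-Hochberg adjusted p = 0.00451), with the call lost without WT 1 (0.0144), WT 2 (0.0199) or CFTR−/− 2 (0.0589). SOX10, a transcription factor of Schwann cells and other glia, was at 3.01 and 0.833 CPM in WT and 0.226 and 0.402 in CFTR−/−. At these low levels both CFTR−/− animals were below both WT lambs, opposite to S100B, and SOX10 was not called. The 27 endothelial genes had a median of 0.39, −0.12 with total count alone, 0.84 without WT 1 and 0.09 without CFTR−/− 2, and edgeR's quasi-likelihood test called 0, with 7 higher and 2 lower at an unadjusted p under 0.05, 2 higher and 1 lower by DESeq2 and 1 higher by the likelihood ratio test. Of the 27, 11 lay wholly above and 3 wholly below WT, beside 21.3% and 32.7% of all genes, and 13 overlapped. CLEC3B, the plasminogen-binding tetranectin of that list, was at 25.4 and 23.7 CPM in WT and 84.3 and 215 in CFTR−/−, with both CFTR−/− animals higher. The endothelial marker PECAM1 was at 68.5 and 40.7 CPM in WT and 56.6 and 96.8 in CFTR−/−. CDH5, another, was at 33.7 and 13.2 CPM in WT and 17.7 and 16.3 in CFTR−/−, and both markers overlapped.

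Immune genes were sparse and without a common shift. The median of 25 myeloid genes was −0.47, turning to 0.46 without WT 1 and 0.10 without CFTR−/− 1 and going to −0.95 without CFTR−/− 2, with 0 called by edgeR's quasi-likelihood test, 2 lower at an unadjusted p under 0.05 and 0 by DESeq2 and the likelihood ratio test. The 29 lymphoid genes had a median of −0.49, 0.00 with genes at 0 set to their bounds or without WT 1, and −3.83 without CFTR−/− 2, and CR2 as their call. Their summed level was 47.5 and 71.8 CPM in WT and 39.2 and 62.5 in CFTR−/−, in which the genotypes overlapped. Among defining lymphocyte genes, CD79A had 8 and 6 reads in WT and 0 in both CFTR−/− libraries, while CD3E had 66 and 14 in WT and 0 and 23 in CFTR−/−. CR2 lost its call without WT 2 and without CFTR−/− 2, leaving 0. Of 32 genes of inflammation and the acute phase the call was CCL26, and the median was −0.06, turning to 0.01 with upper quartile scaling and to 0.25 with the length trend and TMM both dropped, but −0.10 with TMM kept. REG1A made up 99.4% of the summed level of that list in WT 1, and the sums were 99658 and 6404 CPM in WT and 9990 and 6004 in CFTR−/−. The median of the list was −0.79 without CFTR−/− 2 and 0.06 without WT 1. CCL26 lost its call without WT 2 (edgeR quasi-likelihood adjusted p = 0.0153) and without CFTR−/− 2 (0.0216).

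Genes of other organs were read beside those of the pancreas. The 24 hepatocyte genes had a median of 0.85, 0.32 with total count alone and 1.30 without WT 2, and were summed at 3270 and 5383 CPM in WT and 12684 and 8797 in CFTR−/−. edgeR's quasi-likelihood test called 0 of them, with 4 higher at an unadjusted p under 0.05 and 0 by DESeq2 and the likelihood ratio test. AHSG, a plasma protein of the fetal liver, was at 131 and 66.1 CPM in WT and 2990 and 1285 in CFTR−/−, with both CFTR−/− animals higher and no call, and TTR counts in this list as well as in the endocrine one. SERPINA1, the most abundant of the list on average over the 4 libraries, was at 256 and 3355 CPM in WT and 2650 and 3035 in CFTR−/−. Only WT 1 was low for it, and the genotypes overlapped. ALB was higher than SERPINA1 in WT 1, at 1719 CPM, and in CFTR−/− 1, at 3147 CPM. The 19 adipocyte genes had a median of −1.25, −0.64 with genes at 0 set to their bounds and −1.80 without CFTR−/− 1, and were summed at 470 and 232 CPM in WT and 174 and 150 in CFTR−/−. Of these edgeR's quasi-likelihood test called 0, with 3 lower at an unadjusted p under 0.05 and 1 lower each by DESeq2 and the likelihood ratio test. FABP4, the fatty acid carrier of fat cells, was at 152 and 37.7 CPM in WT and 5.78 and 10.1 in CFTR−/−, with both CFTR−/− animals lower and no call. Among defining fat cell genes, ADIPOQ had 45 and 113 reads in WT and 29 and 0 in CFTR−/−, PLIN1 had 17 and 71 in WT and 15 and 10 in CFTR−/−, and LEP had a single read in the 4 libraries. Their part in the results was not tested. The 20 enterocyte genes had a median of −0.19, or −1.30 without CFTR−/− 1, and the 17 erythroid genes one of 0.00, or −0.45 without CFTR−/− 2, with 0 called by edgeR's quasi-likelihood test. At an unadjusted p under 0.05, 3 enterocyte genes and 1 erythroid gene were higher, DESeq2 called 2 enterocyte genes higher and the likelihood ratio test 1, and of defining enterocyte genes FABP2 had a single read. VIL1, the villin of brush borders, was at 113 and 181 CPM in WT and 91.0 and 84.5 in CFTR−/−, and CDX2, an intestinal transcription factor, at 0.385 and 0.890 CPM in WT and 1.68 and 3.06 in CFTR−/−. VIL1 was lower and CDX2 higher in both CFTR−/− animals, neither of them called. Without CFTR−/− 1, 1 enterocyte gene was called.

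Lists of general cell functions set the scale for these shifts. The 58 genes of oxidative phosphorylation had a median of 0.42, which turned to −0.15 with total count alone and to −0.05 without WT 1, and was 0.96 without WT 2. edgeR's quasi-likelihood test called 0, with 12 higher and 2 lower at an unadjusted p under 0.05 and 1 lower each by DESeq2 and the likelihood ratio test, while 1 was called without WT 1. The 19 genes of X inactivation and escape had a median of −0.40, −0.29 with the length trend removed and 0.12 when TMM was dropped as well, with 0 called by edgeR's quasi-likelihood test, 4 lower and 2 higher at an unadjusted p under 0.05, 3 lower and 1 higher by DESeq2 and 1 lower by the likelihood ratio test. UBA1, the ubiquitin-activating enzyme on the X chromosome, was at 156 and 216 CPM in WT and 109 and 111 in CFTR−/−, lower in both CFTR−/− animals without a call. Among 20 housekeeping genes the median was −0.40, −0.31 with the length trend removed, 0.06 when TMM was dropped as well and −0.12 without WT 2, with 1 call. POLR2A, the catalytic subunit of RNA polymerase II, was at 60.6 and 46.9 CPM in WT and 17.6 and 14.3 in CFTR−/−. The pairs were apart and POLR2A fell by 1.74 on the log2 scale (SE 0.295, edgeR quasi-likelihood test with Benjamini-Hochberg adjusted p = 0.00742), a call lost without any of WT 1 (0.0163), WT 2 (0.0149), CFTR−/− 1 (0.0137) or CFTR−/− 2 (0.0961).

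**Figure D3:**
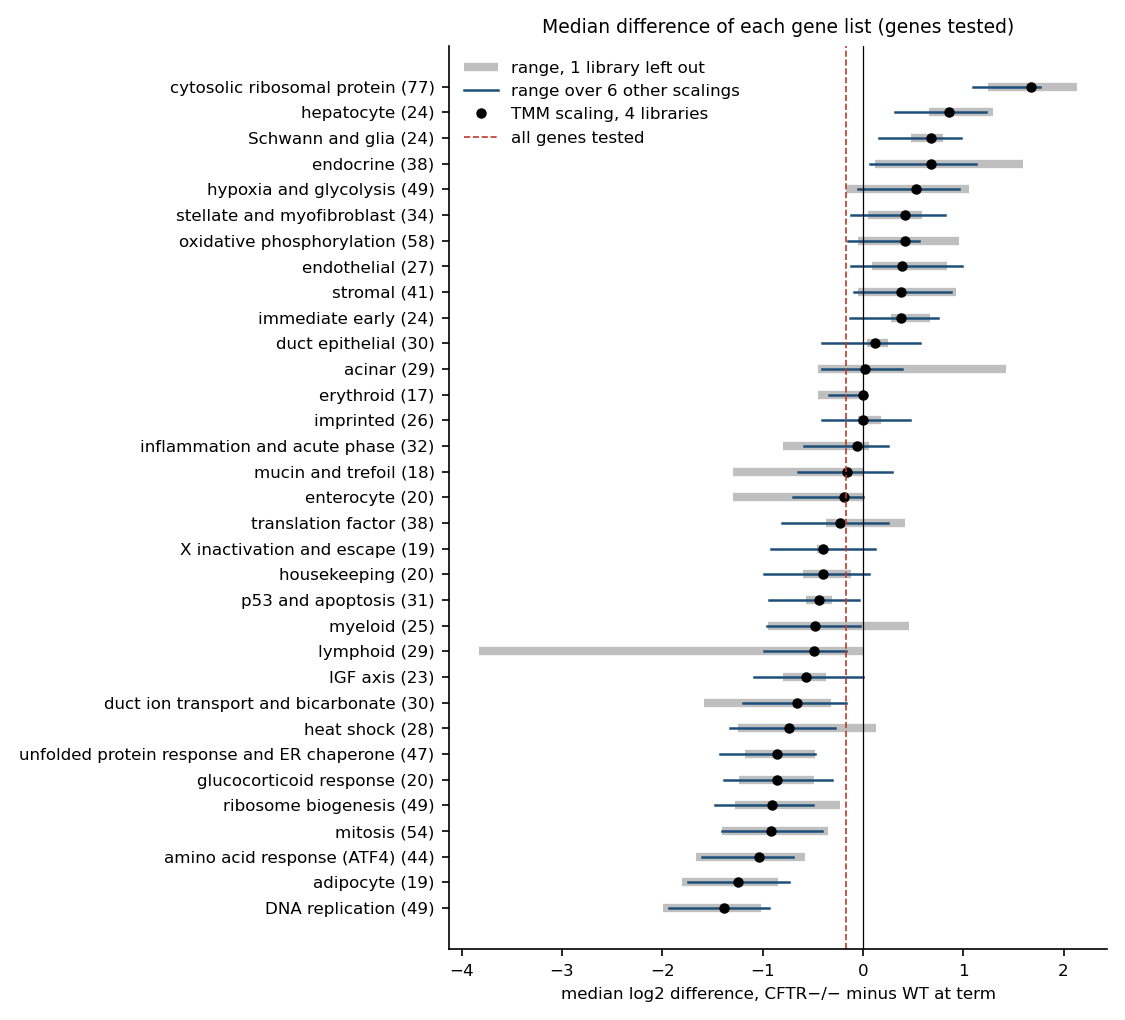
Median log2 difference, CFTR−/− minus WT at term, of each of 33 gene lists (number of genes tested in brackets), with its range under 6 other scalings as a line and its range when 1 library is left out as a bar, beside the median of all genes tested as a dashed line. The lists run from DNA replication at −1.39 to cytosolic ribosomal protein at 1.68, and neither range of these 2 lists reaches 0.

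The values at term were set against the range of the earlier ages. Called genes were chosen for their difference at term, which by itself can place a pair outside that range more often. No conclusion is therefore drawn from their shares. In 71 of the 154 called genes (46.1%) both WT values at term, and not the CFTR−/− pair, lay beyond the range of the 16 earlier libraries, beside 17.2% of all genes tested. In 38 (24.7%) only the CFTR−/− pair did, beside 9.16%, and in 39 (25.3%) both pairs did, beside 4.1%. The WT pair alone was outside more often than the CFTR−/− pair alone in both sets, so that order is not particular to the called genes. These shares describe genes chosen for their difference at term. EXTL3 was between 14.3 and 28.1 CPM in the 16 earlier libraries of both genotypes, so the WT values of 95.1 and 61.7 at term lay above that range and the CFTR−/− values of 13.4 and 10.5 just below it. POLR1B ran from 10.4 to 20 CPM before term, and at term WT stood above that range while CFTR−/− was at its lower end. IGFBP5 ran from 167 to 475 CPM before term, and at term CFTR−/− was within that range and WT, at 87.7 and 98.7, below it. CCL26 in WT was at 1.68 and 3.74 CPM at 65 days, at 131 and 108 CPM at 120 days, and at 12.6 and 11.4 at term. CCL26 in CFTR−/− was at 18.0 and 4.26 CPM at 65 days and at 410 and 486 at 120 days, close to its values at term. MCM6 differed from these, with 35.2 to 65.2 CPM before term and both CFTR−/− values at term below that range, while WT 2 at 84.6 stood above it and WT 1 at 42.9 within it. SCTR in WT went from 53.6 and 55.5 CPM at 65 days to 17.7 and 15.01 at 120 days, while CFTR−/− was at 34.7 and 99.8 at 120 days.

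**Figure D4:**
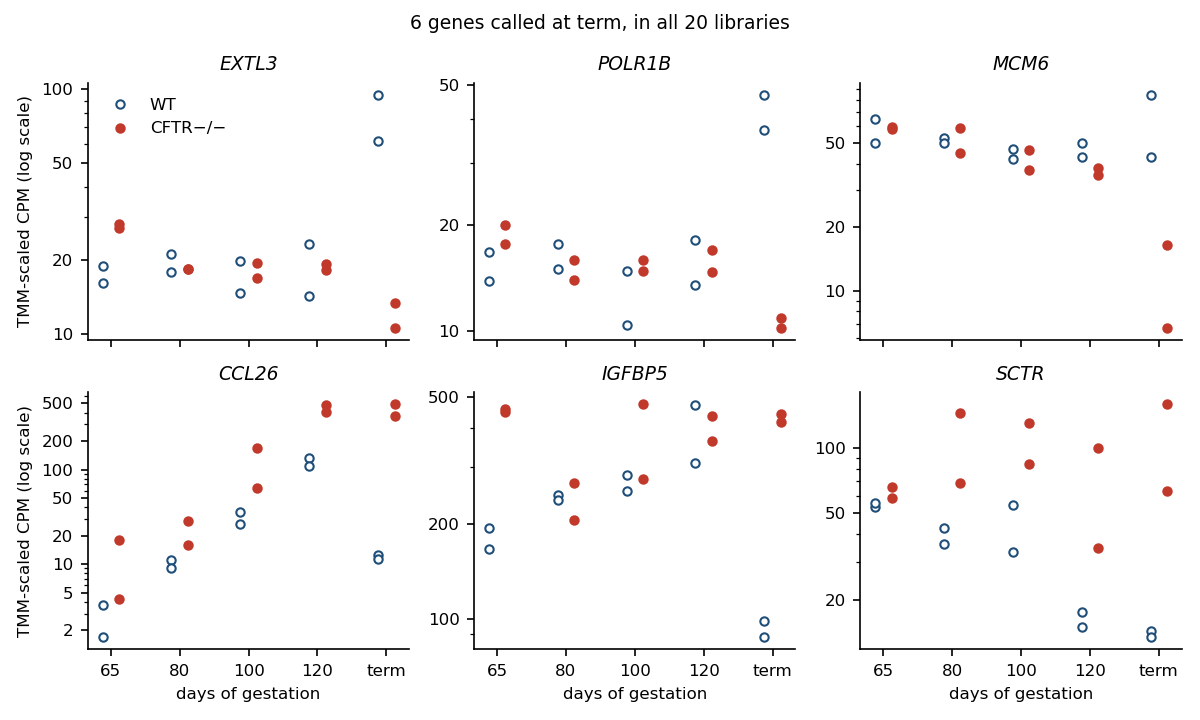
TMM-scaled CPM on a log axis against day of gestation for 6 genes called at term, in all 20 libraries, with WT as open and CFTR−/− as filled circles. For EXTL3 and POLR1B the WT values at term stand above all others, for IGFBP5 they stand below all others, and for MCM6 the CFTR−/− values at term are the lowest.

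The difference at term was itself tested against the mean difference at the earlier ages, and 1 gene, EXTL3 (0.00512% of those tested), was called. EXTL3 differed by −2.85 on the log2 scale in that test (SE 0.327, edgeR quasi-likelihood test with Benjamini-Hochberg adjusted p = 0.00562, range over the alternatives 1.2e-10 to 0.0608). Its differences at the single earlier ages ran from −0.09 to 0.65. Without WT 1 the test called 114 genes, without WT 2 8, without CFTR−/− 1 102 and without CFTR−/− 2 0. Against 120 days alone the count was 0 in edgeR's quasi-likelihood test, 3097 at an unadjusted p under 0.05 and 93 by the likelihood ratio test. For the other genes above, the test of term against earlier ages did not reach the threshold of a call, though 669 genes had an adjusted p under 0.05 in that edgeR quasi-likelihood test. Among them POLR1B differed by −2.11 (adjusted p = 0.0163), MCM6 by −2.31 and VEGFB by 2.01 (both 0.0171), close to their differences at term. For SCTR the value was 1.74 (0.0824), below its difference of 2.97 at term. At 65, 80, 100 and 120 days the same edgeR test between genotypes called 0 genes, with 1928, 486, 2413 and 1044 at an unadjusted p under 0.05.

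Some genes had no read in a whole genotype, and their differences are given as bounds. In CFTR−/−, 2136 uncalled and 3 called genes had 0 reads in both libraries, and in WT 94 genes did, none of them called. A single read equalled 0.0805 CPM in CFTR−/− 2, the shallowest library, against 0.0241 CPM in WT 1. These counts were not made at equal depth, and the part of depth in them was not tested. The fold is bounded by a floor of 3 reads per library, which covers counting error only, and came to 0.169 CPM on average in CFTR−/−. SBK1, a kinase with an SH3-binding domain, was at 13.99 and 4.64 CPM in WT, at least 55.1-fold lower in CFTR−/−, or 27.4-fold from the lower WT animal alone. LOC101117764 was at 23.2 and 10.5 CPM in WT, at least 99.7-fold lower, or 62.0-fold from its lower WT value. LOC101120580 was at 20.8 and 234 CPM in WT, at least 754-fold lower by the WT mean, which WT 2 sets, and at least 123-fold lower by WT 1. SBK1 lost its call without any 1 of the 4 libraries, with adjusted p from 0.0110 to 0.0871 in edgeR's quasi-likelihood test, and the other 2 lost it without CFTR−/− 2 alone (0.0145 and 0.0378).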

How the data were processed

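RNA from whole pancreas was sequenced by the authors from oligo-dT directional libraries, and per the labels reads were aligned with STAR 2.6 and assigned to genes with featureCounts 1.6.3, giving the deposited counts per gene and library, summed over exons of Oar_v4.0. The strand setting of that counting is not stated. From these counts, edgeR 4.0.16 in R 4.3.3 fitted 1 mean per genotype and age over 20 libraries, with TMM scaling and genes filtered by filterByExpr (minimum count 10, total 15), and its quasi-likelihood test compared genotypes at term. A call required a Benjamini-Hochberg adjusted p no higher than 0.01 and a log2 difference no smaller in size than 0.58. Leaving out 1 of 2 animals assumes that the remaining one varies like the other groups. Gene lists were described, not tested. Of 8432 locus numbers, 573 were named from RefSeq (ARS-UI_Ramb_v3.0, names only) and 114 from the study's marker tables. Named genes were CFTR, genes the study names, in each direction the 10 with the lowest adjusted p and no overlap, leading members of each list (up to 6 called, otherwise up to 4 abundant), the 5 most abundant genes and the 5 with the smallest p against earlier ages. The members and lists were chosen with earlier results of these data known. The fit was tested on simulated data, with the recovery given above. Alternatives covered scaling, filter, test, thresholds, libraries, depth and gene length.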

Additional observations from a re-analysis of the deposited data

Results flagged for a closer look

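EXTL3 differed between the genotypes at term, and differently from before: its difference at term minus the mean of its differences at 65, 80, 100 and 120 days was −2.85 on the log2 scale (SE 0.327, interaction contrast in edgeR's quasi-likelihood test with Benjamini-Hochberg adjusted p = 0.00562, range over the alternatives 1.2e-10 to 0.0608, the highest without CFTR−/− 2). At term both WT animals were higher than both CFTR−/− animals.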

How the results depend on the processing

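No gene called at term changed sign under any of the alternatives, but the number of calls moved widely. Beside 154 calls (68 higher, 86 lower), DESeq2 gave 2401 (1031 and 1370), edgeR's likelihood ratio test 1536 (661 and 875) and its test against a fold of 1.5 gave 10 (7 and 3). Total count alone gave 428 (45 and 383), upper quartile scaling 133 higher, removal of the length trend together with TMM 449 (394 and 55), and the same with the TMM scaling kept 250 (130 higher), the last chosen after seeing the data. A filter of 1 CPM gave 473 (256 and 217), a fit to the 4 libraries alone 21 (14 and 7), to the 8 libraries of 120 days and term 1 (1 and 0), and without the 2 libraries the study calls outliers 977 (427 and 550). The replicate block gave 93 (46 and 47) and thinning to one depth 84 (42 and 42). An adjusted p of 0.05 gave 1863 (822 and 1041), an unadjusted p of 0.01 gave 2671 (1170 and 1501), and an adjusted p of 0.001 in edgeR's quasi-likelihood test 0 (0 and 0), with 5386 at an unadjusted p under 0.05. Leaving out 1 library gave 4 to 317 calls, 3 to 134 higher and 1 to 264 lower. The cause was not tested. The fits to 4 and to 8 libraries also leave fewer degrees of freedom, and the part of this was not tested either.

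The test of term against earlier ages called 1 gene, and 0 with upper quartile scaling, total count alone, TMM without the 10 most abundant genes, a tested fold of 1.5, the replicate block or an adjusted p of 0.001, beside 4418 at an unadjusted p under 0.05 in edgeR's quasi-likelihood test. It called 740 by the likelihood ratio test, 27 with the CPM filter, 90 without the outlier libraries, 44 with the length trend and TMM removed, 669 at an adjusted p of 0.05, 1958 at an unadjusted p of 0.01, and 0 to 114 with 1 library left out. Against 120 days the count was 0, but 93 by the likelihood ratio test, 1 with the length trend removed and TMM kept, 968 at an unadjusted p of 0.01, and 0 to 10 with 1 library left out, all alternatives of that test having been chosen after seeing the data. DESeq2 and the fits to 4 or 8 libraries were not run for these 2 tests. The cause was not tested.

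The difference in CFTR turned to 0.20 with the length trend and TMM both removed, was −0.18 with only the trend removed, and was −0.62 to −0.11 with 1 library left out. SMC4 at term, at −0.38, turned to 0.21 with the length trend and TMM removed, and was −0.21 with TMM kept, and ELF5 at term, at −0.33, likewise turned to 0.21 and MCM7 at term, at −0.36, to 0.0803. Leaving out 1 library gave REG1A −4.51 to 0.60, CEL −0.93 to 0.28, COL1A1 −1.21 to 0.21, ISL1 at term −1.24 to 1.48, SPARC at term −0.10 to 1.10, MCM7 at term −0.73 to 0.0484, PLIN1 at term −1.26 to 0.51 and CPA1 −0.67 to 1.35, and CPA1 at term, at 0.02, was −0.41 with total count alone, −0.0598 with TMM without the 10 most abundant genes, −0.0055 with no filter and −0.0099 without the outlier libraries. SPARC at term, at 0.40, was −0.0626 with total count alone. The cause was not tested. Over the other named genes and alternatives, 1817 values kept direction and side of the threshold, 259 lost the call and 87 gained it. List medians moved by less than the spread between animals in 571 cases and by more in 221. With 2 animals a genotype and CFTR−/− 2 at the lowest depth, genes of few reads were tested at little precision.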
